A study of Mus musculus with 1 sample.

Results

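The AP-1 and Egr immediate-early genes Fos, Fosb, Jun, Junb, Jund, Atf3, Egr1, Egr2, Ier2 and Btg2 were followed across single alveolar macrophages (AMs), the resident phagocytes of the alveoli. The 10 genes were taken by name and not by a rule on their values, though earlier results of these data were known. All 10 are listed among the 11918 genes measured. The cells came from 1 adult wild-type mouse of 8 to 12 weeks, homozygous for floxed Hdac3 without Cre, from an FVB/NJ line backcrossed to C57BL/6. They were sorted as CD45+CD11c+SiglecF+ lung cells and sequenced from the 3′ end of each transcript with unique molecular identifiers (UMIs), so that each count stands for 1 captured molecule. The library holds 2055 cells with distinct barcodes and 7222978 UMIs, with 1143 UMIs in the shallowest cell, a median of 3278 and 8603 in the deepest. With 1 mouse and 1 library there is no replicate and no test. The intervals below are exact 95% intervals that cover counting error only.

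Immediate-early genes are switched on within minutes of a stimulus by factors already present in the cell, without new protein synthesis, and most of their transcripts are short-lived. Fos and Jun proteins carry a basic leucine zipper and pair with each other to form AP-1, while the Egr proteins bind DNA through zinc fingers. In macrophages these genes respond to microbial products, growth factors and mechanical stress, and they are also known to respond to the handling of tissue. The adult lungs here were minced and digested with warm collagenase before the sort, so the levels are those of cells after this handling, and the part of the digestion in them was not tested.

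The sorted cells carried the transcripts of AMs. All 15 of the AM markers looked for were listed, Chil3 was found in 100% of cells, and the summed AM markers ranged from 24.0 UMIs per 10000 UMIs in the lowest cell to 1081 in the highest, with a median of 271. None of the 4 eosinophil markers was listed, and the lymphocyte and dendritic cell markers listed were found in at most 0.341% of cells. Of the other types, S100a8 of neutrophils was found in 10.1% of cells, Csf1r in 16.8% and the surfactant gene Sftpc of epithelium in 6.86%. Epcam, which is also an epithelial marker, was found in 58.1%. The library holds no population that should lack the immediate-early genes, so a background share from free RNA could not be measured.

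By GENCODE M21 on GRCm38, the genes lie apart on several chromosomes, with Fos at chr12:85473890-85477273, Fosb at chr7:19302696-19310051, Jun at chr4:95049034-95052222, Junb at chr8:84974484-84978718, Jund at chr8:70698949-70700616, Atf3 at chr1:191170296-191218039, Egr2 at chr10:67535475-67542188, Ier2 at chr8:84661331-84662852 and Btg2 at chr1:134075170-134079120. The promoters were searched for motifs of factors known to act on immediate-early genes. Promoter windows of 250 bases before to 50 bases after a start were at hand for 8 of the 10 genes, from RefSeq on GRCm38.p6, and Ier2 and Egr1 had none. The Jund window belongs to another start and ends before the Jund position given above. Its 250 bases before that start lie at chr8:70697489-70697738. The short form of the cyclic AMP response element, TGACGT, which CREB and ATF proteins bind, was found on either strand in at least 1 window of 4 of the 8 genes, compared with 7.51% of 32851 windows of all genes. Because some genes have more than 1 window, the count over genes and the share over windows are not the same measure. The full element TGACGTCA, which contains TGACGT, was found in 1 of the 8 genes and 1.79% of windows, and the CArG box, the site of serum response factor, in 1 gene and 1.63% of windows. The AP-1 site TGACTCA was in 0 of the 8 genes and 5.20% of windows, and the Egr site GCGTGGGCG in 0 of the 8 and 0.612%. For each gene with a TGACGT match, 1 stretch that holds it is given 5′ to 3′ on the strand of the gene, to show the letters and their spacing. A further Egr2 window, at another start, holds another CArG box match and is not shown. Capitals mark TGACGT in Fos, TGACGTCA in Btg2, the CArG box followed by TGACGT on the opposite strand in Egr2, and TGACGT on the opposite strand in Atf3. The stretches lie on the plus strand at chr12:85473770-85473889 for Fos, the minus strand at chr1:134079236-134079355 for Btg2, the plus strand at chr10:67537749-67537868 for Egr2 and the minus strand at chr1:191183334-191183363 for Atf3.
Fos: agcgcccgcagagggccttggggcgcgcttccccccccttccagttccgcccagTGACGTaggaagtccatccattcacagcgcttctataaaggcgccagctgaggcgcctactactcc
Btg2: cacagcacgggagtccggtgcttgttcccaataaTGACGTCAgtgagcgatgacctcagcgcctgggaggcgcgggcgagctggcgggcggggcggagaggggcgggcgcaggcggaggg
Egr2: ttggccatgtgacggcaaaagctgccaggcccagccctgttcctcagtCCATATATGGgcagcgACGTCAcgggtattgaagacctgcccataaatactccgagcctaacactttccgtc
Atf3: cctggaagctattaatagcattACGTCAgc

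Counted from the start, with negative positions before it, the Fos element lies at -66 to -61 and the Btg2 element at -166 to -159. In Egr2 the CArG box lies at -72 to -63 of the start used here and the short element at -56 to -51, and in Atf3 the short element lies at -8 to -3. A match describes the letters in these windows and is not evidence of binding, and a window without a match says nothing about the factor. At the other end of the transcript, the AU-rich word ATTTA was found in the last 300 bases of the longest coding transcript of 6 of the 10 genes and of 40.3% of 21746 genes. The longer form TATTTAT, a word recognised by mRNA decay proteins such as the product of Zfp36, was found in Fos, which holds 2 copies, and in Jun, Jund and Atf3, compared with 8.94% of genes.

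The 10 genes together made up 35.9 of every 10000 UMIs of the library, and the median cell held 32.0 per 10000 of them. The level in single cells ran from 0, in 10 cells, to 251 per 10000. Those 10 cells were shallow, with a median of 1465 UMIs. The most abundant was Fos, at rank 186 among all genes, and the least abundant was Jun, at rank 1639. Levels were compared between genes as UMIs per 10000 over all cells. This measure counts molecules and does not depend on transcript length, although the capture of each gene may differ.

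Fos, the founding partner of Jun in AP-1, was measured at 8.31 UMIs per 10000 (interval 8.10 to 8.52). It was 0 in the lowest cell, 6.30 per 10000 in the median cell and 56.1 in the highest, and 82.1% of all cells held a Fos UMI. Detection followed depth, from 68.1% in the 514 cells with the fewest UMIs to 92.8% in the 514 with the most, while the level was 8.64 and 8.36 per 10000 in the same cells. To remove this effect of depth, each cell with at least 1800 UMIs was also thinned to 1800 UMIs, which left 1850 cells and removed 205 shallower ones. Of the thinned cells, 68.7% (66.5 to 70.8) held Fos, compared with 77.8% if every cell had expressed Fos at the same rate. Fosb, its close relative, was lower at 3.10 per 10000 (2.98 to 3.23), with 2.11 in the median cell and 35.8 in the highest. It was found in 55.3% of all cells and 38.5% of thinned cells.

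The 3 Jun genes differed in level. Junb, which can pair with Fos and often restrains Jun, was second in the order at 7.54 per 10000 (7.34 to 7.74), with 5.95 in the median cell and 62.8 in the highest. It was found in 79.1% of all cells and 65.1% of thinned cells. Jund, the Jun gene known for steady expression in resting cells, stood at 3.72 per 10000 (3.58 to 3.86), with 3.17 in the median cell and 24.3 in the highest. It was found in 65.7% of all cells and 46.8% of thinned cells. Jun itself was the lowest of the 10, at 0.921 per 10000 (0.852 to 0.993), and was found in only 21.1% of all cells and 12.4% of thinned cells. Its median cell was at 0 and its highest at 39.3 per 10000. Atf3, a stress-induced bZIP factor that pairs with Jun proteins and represses cytokine genes in macrophages, was at 1.96 per 10000 (1.86 to 2.06), with 0 in the median cell and 23.4 in the highest.

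Egr1, the zinc finger factor known as a readout of growth factor signalling, was measured at 2.39 per 10000 (2.28 to 2.51). Its level lay between those of Fosb and Egr2, but it was found in fewer cells than either. The median cell held 0 and the highest held 87.2 per 10000, the highest level of any of the 10 genes in a cell. Egr1 was found in 28.5% of all cells and 20.6% (18.8 to 22.6) of thinned cells, where an equal rate in every cell would give 34.2%. Egr2, its relative, was at 2.00 per 10000 (1.89 to 2.10) with a highest cell at 44.2, and was found in more cells, 42.7% of all and 28.5% of thinned cells. Ier2, a nuclear immediate-early gene, was at 1.75 per 10000 (1.66 to 1.85) with a highest cell at 32.7. Btg2, an antiproliferative gene that acts with mRNA deadenylation, was the third most abundant at 4.19 per 10000 (4.05 to 4.35), with 3.13 in the median cell and 40.2 in the highest. The order from high to low was thus Fos, Junb, Btg2, Jund, Fosb, Egr1, Egr2, Atf3, Ier2 and Jun, and of the 9 neighbouring pairs only Egr2 and Atf3 had overlapping counting intervals. Without replicate mice this order is that of 1 library.

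**Figure D1:**
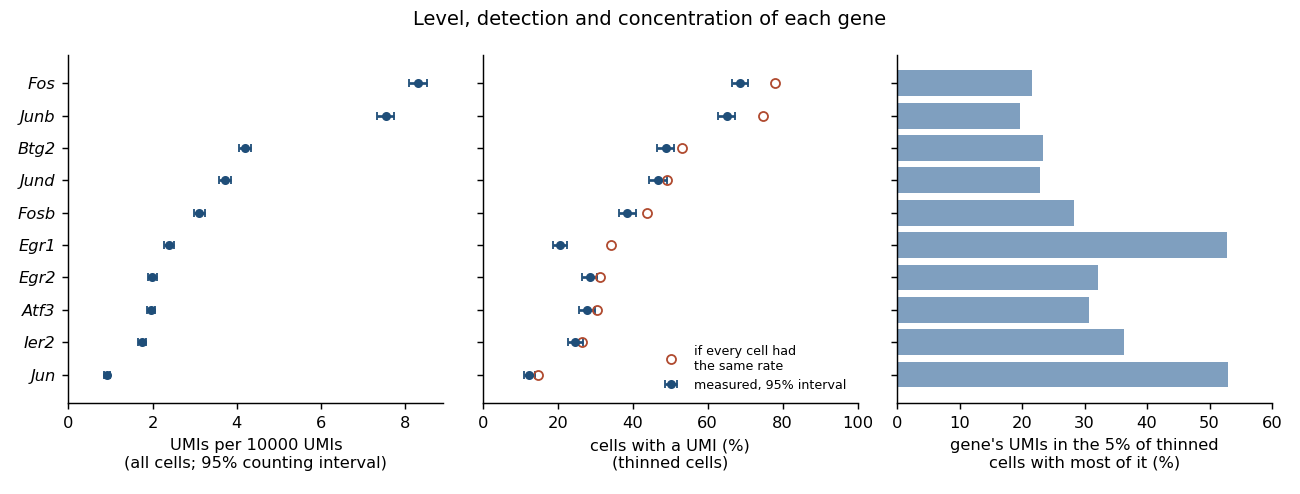
For each of the 10 genes, in order of level, the left panel shows UMIs per 10000 UMIs over 2055 cells with exact 95% counting intervals, the middle panel the percent of 1850 thinned cells with a UMI (filled, with exact 95% intervals) and the percent an equal rate in every cell would give (open), and the right panel the percent of the gene's UMIs held by the 5% of thinned cells with most of it. Egr1 is detected in 20.6% of cells where an equal rate would give 34.2%, and Egr1 and Jun have more than 50% of their UMIs in 5% of the cells.

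How unevenly the transcripts were spread over cells differed between the genes. The 92 thinned cells with most of a gene, 5% of the cells, held 52.8% of the Egr1 UMIs and 52.9% of the Jun UMIs. The same share was 21.5% for Fos, 19.7% for Junb and 22.8% for Jund. A share of this kind is larger for a scarce gene at any given spread, so the variance over the mean of the thinned counts, which is 1 for pure counting, was computed as well. It was 3.04 for Egr1, rank 28 of the 2398 genes found in at least 10% of thinned cells, where the median was 1.04 and the 99th percentile 3.21. It was 1.87 for Fos, 1.63 for Junb, 1.62 for Jun, 1.41 for Fosb, 1.30 for Btg2, 1.27 for Egr2, 1.23 for Ier2, 1.18 for Atf3 and 1.13 for Jund. By this ratio Jund was the closest of the 10 to counting alone. At a given spread the ratio is larger for an abundant gene, and the mean thinned count was 1.51 for Fos and 0.158 for Jun. Neither measure therefore ranks the genes by spread alone. The cell with the most Egr1 UMIs also held the most Jun and Ier2 UMIs. It contained 28 Egr1, 18 Jun and 18 Ier2 among 6971 UMIs, with 8 Fos, 13 Junb and 1 Fosb. The cell with the most Fos UMIs, 30 of 6432, held 5 Egr1, 2 Jun and 2 Junb.

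The genes were found together somewhat more often than their single shares would give. In thinned cells the median cell held 4 of the 10 genes, and without thinning 5. Of the 1850 thinned cells, 31 held none of the genes, 155 held 1 or none and 114 held 7 or more. If each gene had been present independently at its own share, 9.17, 82.8 and 57.4 cells would be expected. The variance of the number of genes per cell was 2.94, compared with 2.04 under independence. Without thinning, 25 cells held all 10 genes, and these were deep cells with a median of 6043 UMIs.

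**Figure D2:**
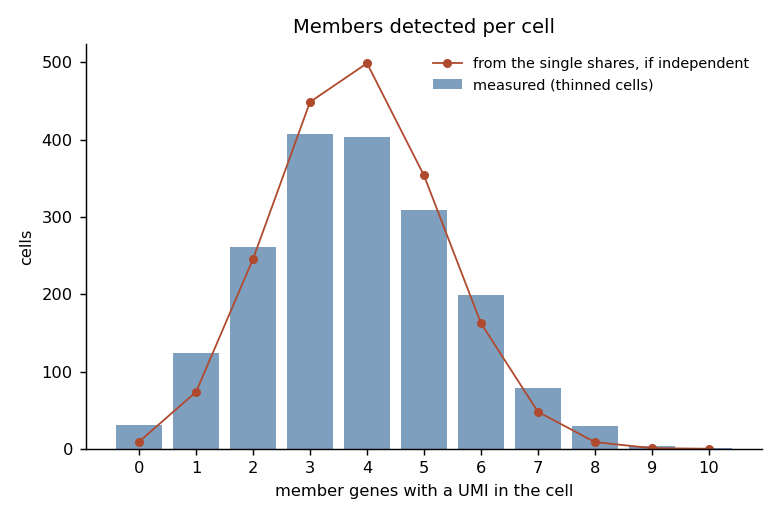
Bars show the number of thinned cells (y axis) that hold each number of the 10 genes (x axis), and points the number computed from the single shares as if the genes were independent. The measured distribution is wider, with 114 cells holding 7 or more genes where independence gives 57.4, and 155 cells holding 1 or none where it gives 82.8.

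Correlations across cells were weak but mostly positive. Over the 45 pairs, the Spearman correlation of thinned counts in 1850 cells had a median of 0.0597 and ran from -0.0224 for Jund and Ier2 to 0.219 for Egr1 and Ier2, and 4 pairs were below 0. Counts of 0 to 2 UMIs per gene in most cells hold such values low, and the cells share 1 library, so they are given as a description. Of the 45 pairs, 9 (20.0%) were above 0.1, compared with 0.101% of the 2874003 pairs among the 2398 genes detected in at least 10% of thinned cells, whose median was 8.17e-05. The pairs of all genes were not matched to the 10 genes for level, so the 2 shares are not a comparison at equal counts. Taking depth and mitochondrial share into account, the 45 pairs had a median of 0.0602.

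The pairs fell mainly around Egr1 and Junb. Egr1 correlated at 0.219 with Ier2, 0.202 with Btg2, 0.194 with Junb, 0.139 with Egr2 and 0.136 with Jun. Junb correlated at 0.169 with Btg2, 0.168 with Fos and 0.153 with Fosb. Fos correlated at 0.101 with Btg2, 0.0996 with Egr1, 0.0911 with Jun and 0.0901 with Fosb. Jund had no correlation above 0.0340 with any other of the genes and Atf3 none above 0.0596, the latter with Fos.

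**Figure D3:**
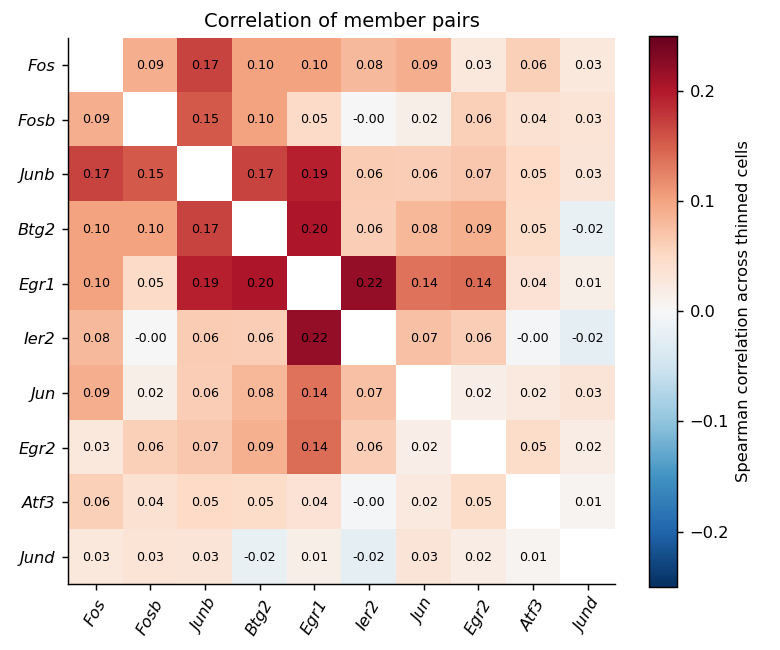
Each square gives the Spearman correlation of thinned UMI counts of 2 genes across 1850 cells, from blue (negative) to red (positive). The squares of Egr1 with Ier2 (0.219), Btg2 (0.202) and Junb (0.194) are the highest, and the rows of Atf3 and Jund stay near 0.

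Of all 2397 other genes detected in at least 10% of thinned cells, Junb had the second highest correlation with Fos. Btg2 was at rank 5, Egr1 at 6, Jun at 9, Fosb at 10, Ier2 at 15, Atf3 at 47, Egr2 at 402 and Jund at 424. The genes outside the 10 that were most like Fos were the MAP kinase phosphatase Dusp1 (0.182), the mRNA decay factor Zfp36 (0.142), the early response gene Ier3 (0.111), the kinases Pim1 (0.0962) and Sgk1 (0.0926), the stress cytokine Gdf15 (0.0892), the G protein regulator Rgs1 (0.0878), Mob1b (0.0833), Ier5 (0.0830) and Ddb1 (0.0795). For each of the others, too, the most alike gene outside the 10 was taken. For Egr1 this was the neutrophil chemokine Cxcl2 (0.302), and for Ier2 it was again Cxcl2 (0.163). Outside the 10, Junb was most like Zfp36 (0.204), Btg2 like the nuclear receptor Nr4a1 (0.168), Jun like Phlda1 (0.109), and both Egr2 (0.131) and Atf3 (0.120) like the chemokine Ccl3. Fosb was in the same way most like the adhesion receptor Cd44 (0.119) and Jund like the retinoic acid receptor Rara (0.0892). Fosb, Jun, Egr2, Ier2 and Btg2 each had a higher correlation with 1 or more of the 10 than with the outside gene named here.

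To see in which order the genes appear as Fos rises, thinned cells were grouped by their Fos count. There were 579 cells without Fos, 568 with 1 UMI, 329 with 2, 182 with 3 and 192 with 4 to 12. The groups were alike in depth and in mitochondrial share, with medians of 3461 UMIs before thinning and 3.17% mitochondrial in cells without Fos and 3411 UMIs and 3.22% in cells with 4 or more. From the cells without Fos to those with 4 or more, Egr1 was the only one of the other 9 genes at least 2-fold higher. For comparison, 7.85% of the 9404 genes with at least 20 UMIs were at least 2-fold higher, most of them scarce genes whose ratio rests on few counts, so that 1 of 9 is near this background. Among the 2086 genes with at least 500 UMIs, the range in which all 10 genes fall and a limit set after seeing the data, 0.144% were. These were 3 genes, namely Ier3 (2.88-fold), Egr1 (2.67-fold) and Dusp1 (2.06-fold).

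Egr1 was at 1.84 UMIs per 10000 in cells without Fos, 1.84 at 1 Fos UMI, 2.25 at 2, 2.75 at 3 and 4.92 at 4 or more. It was thus level over the first and second group, and the last interval (4.21 to 5.72) lay above that of the group with 3 (2.21 to 3.38). Both intervals leave out the spread of Egr1 between cells beyond counting. The fold of 2.67 had an interval of 2.16 to 3.30, and the share of cells with Egr1 went from 18.1% to 34.4%. Junb went from 6.17 through 7.39, 7.89 and 9.68 to 10.7 per 10000, a fold of 1.74 (1.53 to 1.98). Btg2 went from 3.60 through 3.88, 4.41 and 4.88 to 5.93, a fold of 1.65 (1.38 to 1.96). Both were higher in each successive group.

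Jun was at 0.662 per 10000 without Fos, 1.74 at 3 Fos UMIs and 1.27 at 4 or more, a fold of 1.92 (1.29 to 2.85) between the ends. Ier2 went from 1.44 to 2.26, a fold of 1.57 (1.18 to 2.08), and Fosb from 2.77 to 4.08, a fold of 1.47 (1.19 to 1.81). For Atf3 (1.91 to 2.29, fold 1.20, 0.911 to 1.56), Egr2 (2.01 to 2.29, fold 1.13, 0.865 to 1.48) and Jund (3.78 to 4.08, fold 1.08, 0.884 to 1.31) the interval of the fold included 1. The median fold of all genes tested was 1.01.

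**Figure D4:**
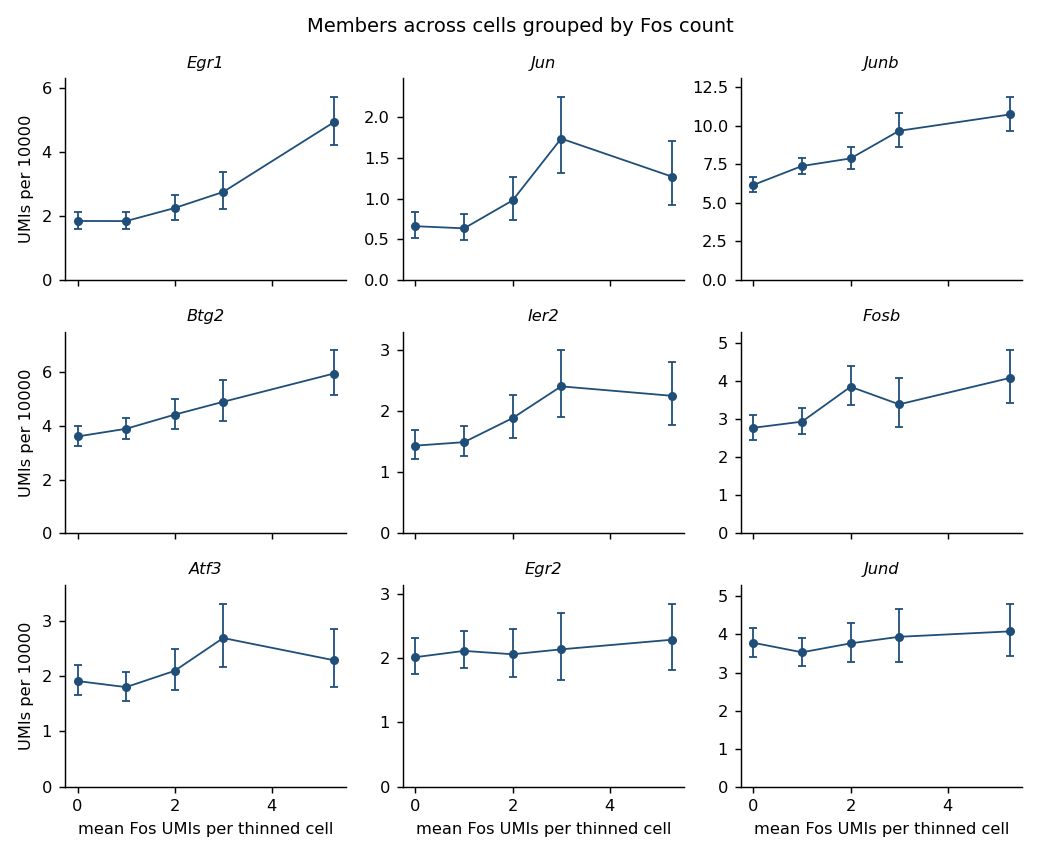
Mean level of each of the other 9 genes (UMIs per 10000, y axis from 0) against the mean Fos count of the 5 groups of thinned cells, with exact 95% counting intervals. Egr1 stays near 1.84 up to 1 Fos UMI and reaches 4.92 at 4 or more, Junb and Btg2 climb in every group, and Atf3, Egr2 and Jund have folds whose intervals include 1.

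The Fos count at which each gene had covered 50% of its rise gave the order Fosb (1.54), Ier2 (1.89), Jun (1.97), Atf3 (2.01), Junb (2.32), Btg2 (2.75), Jund (2.96), Egr2 (3.21) and Egr1 (3.66). This order was not stable. A second random draw of the same depth ranked the 7 genes that still rose with a Spearman correlation of only 0.214 to the main order, and in that draw Jund and Egr2 had no rise. Egr1 was last or next to last in 7 of the 9 settings tried, at place 6 of 9 in cells thinned to 1100 UMIs and 5 of 7 in the second draw. Cells at a given Fos count are not a time course, so places in this order are not times.

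Grouped by Egr1 instead, more of the other genes passed 2-fold. There were 1468 thinned cells without Egr1 and 56 with 4 to 16 Egr1 UMIs, with median depths before thinning of 3438 and 3593 UMIs and mitochondrial medians of 3.21% and 2.65%. Of the other 9 genes, 5 were at least 2-fold higher in the cells with 4 or more, compared with 9.91% of all 9404 genes and 1.92% of the 2086 genes with at least 500 UMIs. Jun was at 0.670 per 10000 without Egr1, 0.827 at 1 UMI, 1.26 at 2, 3.09 at 3 and 4.66 at 4 or more, a fold of 6.96 (4.94 to 9.65). Ier2 was at 1.31, 2.12, 3.56, 4.17 and 6.94 in the same groups, a fold of 5.32 (4.05 to 6.89). Both were higher in each successive group, and Ier2 was found in 20.5% of cells without Egr1 and in 66.1% of those with 4 or more.

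Btg2 was 2.75-fold higher (2.22 to 3.38; 3.61 to 9.92 per 10000), Egr2 was 2.66-fold higher (1.94 to 3.57; 1.83 to 4.86) and Junb was 2.26-fold higher (1.90 to 2.66; 6.77 to 15.3). Fos was 1.83-fold higher (1.54 to 2.17), from 7.69 to 14.1 per 10000. Fosb at 1.25-fold (0.882 to 1.72), Jund at 1.23-fold (0.895 to 1.65) and Atf3 at 1.01-fold (0.612 to 1.58) had intervals that included 1. Egr2 was at 1.13-fold along Fos and 2.66-fold along Egr1, while the intervals of Jund and Atf3 included 1 along both. Both rankings use the same cells, so they are not independent of each other.

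**Figure D5:**
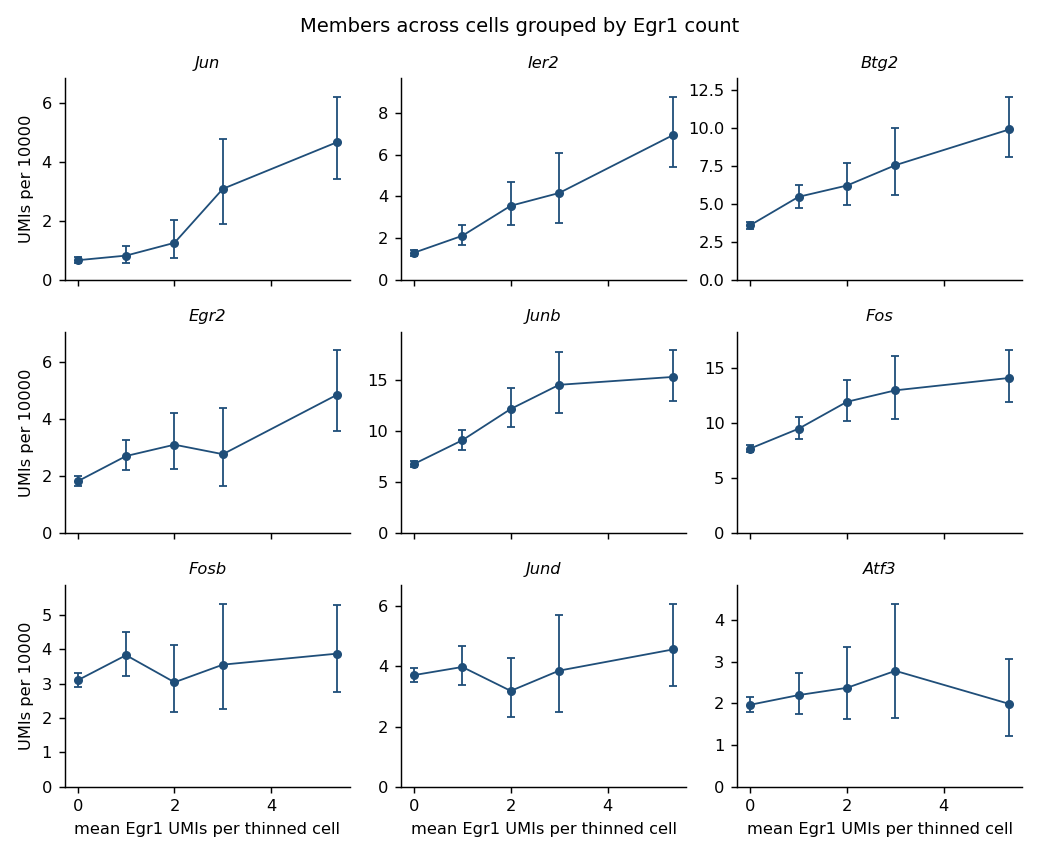
Mean level of each of the other 9 genes (UMIs per 10000, y axis from 0) against the mean Egr1 count of 5 groups of thinned cells (0, 1, 2, 3 and 4 or more Egr1 UMIs), with exact 95% counting intervals. Jun and Ier2 climb to 4.66 and 6.94 per 10000, Btg2, Egr2, Junb and Fos also end higher, and Fosb, Jund and Atf3 have folds whose intervals include 1.

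Ranking by Junb or by Jun also placed 5 of the other 9 genes past 2-fold. In the 184 cells with 4 or more Junb UMIs, compared with 646 without, Egr1 was 5.45-fold higher, Jun 2.60-fold, Ier2 2.40-fold, Btg2 2.26-fold and Fosb 2.00-fold. The background was 6.92% of genes with at least 20 UMIs and 1.2% of those with at least 500. In the 39 cells with 2 or more Jun UMIs, compared with 1620 without, Egr1 was 6.59-fold higher, Ier2 2.95-fold, Egr2 2.14-fold, Fos 2.01-fold and Btg2 2.00-fold, with a background of 12.5% and 1.53% in the same way. Fosb along Junb, and Fos and Btg2 along Jun, thus lay at the 2-fold limit itself. No intervals were given to these folds, so the counts of 5 depend on the exact limit. Jund was at 1.08-fold in both.

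The genes around this set were counted over lists. Of 32 other immediate-early and feedback genes that could be compared, 3 were at least 2-fold higher with 4 or more Fos UMIs, with a list median of 1.31 (all genes, 1.01). This count is near the 7.85% of all genes. The 3 were Ier3, Dusp1 and Socs3, the last with 31 UMIs in all cells. With 4 or more Egr1 UMIs 11 of the 32 were, with a median of 1.65 (all genes, 1.03), where 9.91% of all genes were. Among them were the NF-κB inhibitors Nfkbia (7.10-fold) and Tnfaip3 (5.80-fold), Gadd45b (3.97-fold), Ier3 (3.89-fold), Csrnp1 (3.78-fold) and Zfp36 (2.72-fold).

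Of 11 chemokine and cytokine genes, 0 were 2-fold higher with Fos (median 0.999) and 8 were with Egr1 (median 3.25). Of all genes, 7.85% were with Fos and 9.91% with Egr1. The highest group held 192 cells for Fos and 56 for Egr1, so the counts along Fos and along Egr1 compare unlike extremes. Tnf was 18.8-fold higher with Egr1 (0.575 to 10.8 per 10000), Cxcl1 13.1-fold and Cxcl2 11.1-fold (6.44 to 71.5). Along Fos the same genes were at 1.69-fold, 1.88-fold and 1.53-fold. Of 15 cell cycle genes, 7 were at least 2-fold higher along Egr1 and 3 at least 2-fold lower (median 1.98). Among all genes, 9.91% were higher and 29.4% lower. The 7 were scarce, the most abundant being Birc5 with 374 UMIs in all cells. The sum of the 15 was 7.57 per 10000 without Egr1 and 14.2 with 4 or more. Along Fos, 1 was higher and 2 lower (median 0.882), where 7.85% and 10.8% of all genes were. The AM marker sum was 283.0 per 10000 in cells without Egr1 and 288.6 in those with 4 or more.

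Of 17 other bZIP genes compared, from the AP-1, CREB/ATF and Maf groups, 0 were 2-fold higher along Fos (median 0.960) or Egr1 (median 0.999). Of all genes, 7.85% were along Fos and 9.91% along Egr1, so 0 of 17 is not far from the background. Along Egr1, 3 of the 17 were at least 2-fold lower, compared with 29.4% of all genes. The most abundant was Fosl2, at 6.03 UMIs per 10000 and in 81.5% of cells, whose fold was 1.23 along Fos and 1.24 along Egr1. Maff, a small Maf gene, was at 1.97-fold along Egr1 and 0.958-fold along Fos. Egr3 and Egr4 are not among the genes measured. The Egr corepressors Nab1 and Nab2 were at 1.33-fold and 1.03-fold along Fos and at 1.36-fold and 0.255-fold along Egr1. In the highest Egr1 group Nab2 was at only 0.0992 per 10000, compared with 0.390 in cells without Egr1. The Nab2 fold along Egr1 thus rests on very few UMIs. Because 29.4% of all genes were at least 2-fold lower along Egr1, no reduction of Nab2 is read from it. Of 17 genes for upstream kinases and factors, such as Srf, 0 were 2-fold higher and 2 lower along Fos. Of all genes, 7.85% were higher and 10.8% lower along Fos. Fosl2 and Creb1 are in both this list and the bZIP list. Along Egr1, 2 of the upstream genes were higher, both scarce Elk genes, and 3 lower. The higher count is near the 9.91% of all genes, and 29.4% of all genes were lower. Of 11 heat shock genes, which like the immediate-early genes respond to handling stress, 0 were 2-fold higher along Fos (median 1.08). With 7.85% of all genes higher, 0 of 11 is near the background. Along Egr1 (median 0.984) 2 were higher, Hspa1a (2.43-fold) and Dnajb1 (2.15-fold), and 1 was at least 2-fold lower, Hsph1 (0.448-fold). Among all genes, 9.91% were higher and 29.4% lower along Egr1. Hspa1a was at 1.39 and Dnajb1 at 1.09 per 10000 in the highest Egr1 group, so both folds rest on few UMIs.

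The levels also varied with the kind of cell. In the 230 thinned cells with a Tnf UMI, compared with 1620 without, Egr1 was at 7.32 against 1.61 per 10000, Jun at 1.88 against 0.737, Junb at 11.5 against 7.12, Btg2 at 6.35 against 3.89, Egr2 at 2.83 against 1.99 and Ier2 at 3.29 against 1.495. The counting intervals of these 6 of the 10 genes did not overlap, compared with 4.89% of the 2087 genes with at least 500 UMIs (shares of this kind were added after seeing the data). Atf3, at 2.46 against 1.96, Fosb, at 3.21 in both, Jund, at 3.86 against 3.73, and Fos, at 9.44 against 8.21, had overlapping intervals. Without the cells with a Tnf UMI, a choice made after seeing the data, Egr1 was still the 1 gene past 2-fold along Fos, and the median correlation of the 45 pairs was 0.0542.

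Cells with much MHC class II transcript, the genes of antigen presentation, had less Fos. In the 186 cells with at least 5 UMIs of these genes Fos was at 6.33 per 10000, compared with 8.59 in 1664 others, and Egr2 at 1.40 against 2.17. The intervals of these 2 of the 10 genes did not overlap, compared with 5.22% of genes with at least 500 UMIs. Counted the other way, 4 of the 6 class II genes were at least 2-fold lower in cells with 4 or more Fos UMIs, compared with 10.8% of all genes, and their sum went from 15.9 to 8.83 per 10000. In the 130 cells with a UMI of 3 or more cell cycle genes, compared with 1720 others, Jund was at 2.35 against 3.85 per 10000, Junb at 5.60 against 7.83 and Fosb at 2.22 against 3.28, with intervals that did not overlap. These 3 of 10 stand beside 15.8% of genes with at least 500 UMIs. Jun was at 1.37 (0.935 to 1.93) against 0.843 (0.744 to 0.952), which overlap. Egr1 was at 2.95 (2.29 to 3.73) against 2.27 (2.11 to 2.45), which overlap as well. A UMI more or less moves cells across these limits, since 137 cells held exactly 2 such cell cycle genes and 31 exactly 3, and 45 cells held 4 class II UMIs and 26 exactly 5.

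In the 301 thinned cells with over 5% of UMIs on mitochondrial genes Egr1 was at 1.61 per 10000 (1.29 to 1.98), compared with 2.46 (2.28 to 2.65) in the 1549 others, and Atf3 was at 1.53 compared with 2.12. The intervals of the other 8 overlapped. Since 17.4% of genes with at least 500 UMIs did not overlap between these cells, 2 of 10 is near the background. Among the 5% of cells with the most UMIs, where doublets left in the file would most likely lie, Ier2 was at 2.63 per 10000 compared with 1.67 in the rest. The intervals of the other 9 genes overlapped. That 1 of 10 stands beside 5.75% of genes with at least 500 UMIs.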

How the data were processed

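Sorted AMs of 1 wild-type mouse were profiled with the 10x Genomics 3′ chemistry (v2). The authors counted UMIs with Cell Ranger on mm10 and deposited the natural log of 1 plus UMIs per 10000 UMIs of the cell (Seurat), together with a scaled score per gene and cell that is capped at 10. Whole UMI counts were recovered from the log values, and 100% of the values above 0 were whole within 0.02 UMI. Cells were thinned to 1800 UMIs at random (seeded). Groups by Fos are the quintiles of cells with Fos, ties kept together. Folds are ratios of summed UMIs per 10000 over genes with at least 20 UMIs, with a limit of 2-fold in place of a test. Share intervals are Clopper-Pearson and level intervals Poisson. UMIs amplified by PCR were counted once, and the intervals do not cover differences between mice. Level and fold intervals also leave out spread between cells beyond counting. They are therefore too narrow for a gene such as Egr1, whose variance over the mean was 3.04. The paper states that cells with unusually many genes were excluded as potential doublets, and the highest cell here held 2495 genes. No doublet caller was run here. The grouping and fold steps were tested on simulated data, in which only genes with more UMIs than Egr1, Egr2, Atf3, Ier2 or Jun were raised. The step that sets the order along Fos was tested only on simple made-up series. Positions came from GENCODE M21, in which 0% of the 98-base words at the 3′ ends of the 10 genes were shared with other genes. Jun, Junb, Jund and Atf3 overlap a gene on the opposite strand, and the 3′ chemistry keeps the strand. Python 3.11.15, numpy 2.4.6, scipy 1.17.1 and pandas 2.3.3 were used. The genes and lists were chosen with earlier results of these data known. Genes outside them are named when most like Fos (10) or another of the 10 (1 each), or from a list. The cKO library was not analysed here.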

Additional observations from a re-analysis of the deposited data

How the results depend on the processing

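The share of cells with Fos was 82.1% without thinning and 55.0% at 1100 UMIs, against 68.7%, and the median number of the genes per cell was 5 and 3, against 4. Both follow from the number of UMIs drawn. The number of genes at least 2-fold higher at the highest Fos level was 1, and 2 without thinning, 2 at 1100 UMIs and 2 in cells with at most 5% mitochondrial UMIs, each time Egr1 and Jun. It was 5 at a limit of 1.5-fold (2.21% of genes with at least 500 UMIs passed that limit), and 5 when cells were ranked by Jun, 5 by Egr1 and 5 by Junb. By Jun and by Junb, some of the 5 lay at the limit, at 2.00-fold or 2.01-fold. The correlation of the order along Fos with the main order was 0.381 without thinning, 0.417 at 1100 UMIs, 0.214 in the second draw, 0.950 in cells with at most 5% mitochondrial UMIs, 0.533 without the 5% of cells with the most UMIs, 0.800 with 3 groups, 0.976 with 8 groups and 0.367 by share of cells. The cause of these moves was not tested. The median correlation between the genes ran from 0.0383 to 0.0974 in these alternatives and was 0.168 for the raw counts of all cells, which share the depth of the cell. With 1 library, no spread between mice is known. No paired analysis was possible because there is 1 group and 1 library.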

Other observations

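The 3 cells with the highest summed level of the 10 genes differed in which genes made up the sum. The highest, at 251 UMIs per 10000, was a shallow cell of 1273 UMIs and held 8 Junb, 7 Egr1, 5 Jun, 5 Btg2 and 4 Fosb UMIs but only 1 Fos. The second, of 1950 UMIs, held 17 Egr1 and 6 Fos UMIs and 0 Fosb. The third, of 2777 UMIs, held 13 Fos, 11 Egr1 and 7 Junb UMIs and 0 Jun. The cell with the most Btg2 UMIs held 17 of them with 22 Fos UMIs and 1 Egr1, and the cell with the most Egr2 UMIs held 11 of them with 14 Egr1 and 12 Btg2. These are single cells with counting error only.

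The 40 genes with at least 500 UMIs that were at least 2-fold higher in cells with 4 or more Egr1 UMIs, 5 of them among the 10, include some outside the lists, named after their values were seen. Among them were the NF-κB family gene Nfkbiz (16.5-fold, 0.367 to 6.05 per 10000), the cystine transporter Slc7a11 (4.37-fold), the choline kinase Chka (3.90-fold) and the metallothionein Mt2 (2.80-fold).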
